A study of Homo sapiens with 6 samples.

Results

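The regions described here are read-rich clusters with few conversions in an IR-PAR-CLIP experiment on IGF2BP3, a form of crosslinking and immunoprecipitation (CLIP) that uses a photoactivatable ribonucleoside (PAR) and an infrared (IR) dye to see the RNA on a gel. A cluster is a stretch of the genome on 1 strand covered by overlapping reads, as called by PARalyzer in each library. Members were selected on 2 measured values, a read count of at least 20 and at most 0.25 T-to-C conversion events per read, so these values are given as a description and were not tested. The rule found 1730 members among the 53552 clusters with at least 20 reads and the 244620 clusters of the 5 IGF2BP3 libraries. They were set beside 39163 comparison clusters, which had at least 20 reads and more than 0.5 events per read, and the 12659 clusters between the limits were counted only.

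All libraries came from HCT116, a human colorectal carcinoma cell line, here with the genotype Tet-OsTIR1-PURO, given 100 µM 4-thiouridine for 15 h and irradiated at 365 nm. Each library is named by its RNase and by the U/µL added first to the lysate and then to the beads, and each condition has 1 library. The 5 IGF2BP3 libraries are RNase I 0.05/0.05, RNase I 0.1/0.025, RNase I 0.05/0.025, RNase T1 1/1 and RNase T1 0.25/0.25, and an IgG precipitate digested at RNase I 0.1/0.025 served as the control. The antibody against IGF2BP3 also recognizes its paralog IGF2BP2 in part, so the clusters may hold RNA of both proteins. RNA was recovered by electroelution in the RNase I 0.05/0.05 and RNase T1 1/1 libraries and from crushed gel in the other IGF2BP3 libraries, so the extraction cannot be told apart from the concentration on the beads for RNase I, nor from either concentration for RNase T1.

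IGF2BP3 is an RNA-binding protein of the cytoplasm that is made in the embryo and again in many tumors, and it binds mostly in the 3′UTRs of mRNAs. In PAR-CLIP the cells build 4-thiouridine into new RNA in place of uridine, long-wave UV links it to a protein that touches it, and reverse transcriptase then often reads the linked base as C. A T-to-C conversion is therefore read as a sign of a T near the protein, and RNA carried along without a link is expected to hold fewer. RNase I cuts after any base and RNase T1 cuts after G. Transfer RNAs (tRNAs) and Y RNAs are short, folded and abundant, mitochondrial RNA is made inside the organelle, and the nuclear genome holds old copies of mitochondrial DNA, of small RNAs and of mRNAs to which reads of the parent RNA can align.

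Among the clusters with at least 20 reads, 1.10% (243 of 22013) were members with RNase I 0.05/0.05, 1.10% (89 of 8058) with RNase I 0.1/0.025, 1.86% (124 of 6664) with RNase I 0.05/0.025, 7.61% (1138 of 14951) with RNase T1 1/1 and 7.29% (136 of 1866) with RNase T1 0.25/0.25. Members held 0.627%, 1.04%, 1.48%, 4.11% and 3.22% of the cluster reads in the same order. The RNase T1 1/1 library alone gave 1138 members, and 592 remained without it. The limit falls within a continuous range of ratios. In RNase T1 1/1, 509 members had 0.20 to 0.25 events per read and 724 clusters lay just above, between 0.25 and 0.30. A member at the limit was a RAC1 cluster with 20 events on 80 reads (0.25) in RNase I 0.05/0.05, and a cluster just outside was one of SLC49A4 with 10 events on 39 reads (0.256). The lowest ratios were 0.0244, 0.0247, 0.0392, 0.0225 and 0.0323 in the 5 libraries, found in a nuclear copy of mitochondrial DNA, a Y RNA copy, a tRNA gene, a 7SK copy and a nuclear copy of mitochondrial ribosomal RNA.

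The sequences below are shown because members of all 5 libraries cover them. They are GRCh38 sequence read 5′ to 3′ on the strand of the cluster, and capitals mark each T, the base at which a conversion can be read. The first is the stretch of MT-TW, the mitochondrial tryptophan tRNA, at chrM:5533-5556 on the plus strand. The second is its copy in the nuclear genome at chr1:630703-630726 on the plus strand. The third lies in the selenocysteine tRNA gene TRU-TCA1-1 within an intron of ERCC1, at chr19:45478637-45478661 on the minus strand. The fourth is the 3′ part of the alanine tRNA gene TRA-AGC3-1 at chr6:28607192-28607230 on the plus strand. The fifth is a copy of HMGA1 sequence outside genes, at chr13:23135549-23135567 on the plus strand.
MT-TW: accaagagccTTcaaagcccTcag
Nuclear copy of MT-TW: accaagagccTTcaaagcccTcag
TRU-TCA1-1: gTgcaggcTTcaaaccTgTagcTgT
TRA-AGC3-1: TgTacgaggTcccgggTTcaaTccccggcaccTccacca
HMGA1 copy: TcaTTgccgcTgcTaccag

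Read-rich clusters with few conversions lay mostly outside annotated mRNA exons in the RNase I libraries and mostly in mRNA exons in the RNase T1 1/1 library. Each member was placed in 1 of 5 origins, taken in the order mitochondrial sequence or its nuclear copy, nuclear tRNA gene, small non-coding RNA, mRNA exon, and any other place. Mitochondrial sequence and its nuclear copies made up 11.5%, 33.7% and 21.8% of members with RNase I 0.05/0.05, 0.1/0.025 and 0.05/0.025 and 2.90% and 25.7% with RNase T1 1/1 and 0.25/0.25. Among comparison clusters the share lay between 0.562% and 1.21%. By reads the weight of this origin was larger, with 38.9%, 74.99% and 64.7% of the member reads in the RNase I libraries and 3.82% and 41.0% in the RNase T1 libraries. Nuclear tRNA genes held 8.64%, 10.1% and 15.3% of members with RNase I and 0.967% and 2.94% with RNase T1, against 0.184% to 0.400% of comparison clusters. Exons of mRNA held 21.0%, 19.1% and 32.3% of members with RNase I and 68.7% and 47.8% with RNase T1, against 84% to 85.2% of comparison clusters. Any other place held 50.2%, 30.3%, 26.6%, 26.8% and 22.1% of members in the 5 libraries. Of the members in introns, antisense to genes or outside genes, 96 of 121, 39 of 43, 44 of 56, 222 of 295 and 29 of 32 matched a transcript. The shares were 79.3%, 90.7%, 78.6%, 75.3% and 90.6%, against 79.5%, 89.2%, 89.4%, 73.2% and 88.4% of comparison clusters in such places. Members identical to a transcript over their whole length made up 28.1%, 41.9%, 39.3%, 49.5% and 56.25%. Among comparison clusters this was 53.1%, 66.9%, 64.3%, 55.9% and 75.2%. In both sets the place of such a cluster therefore does not say which RNA its reads came from.

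**Figure D1:**
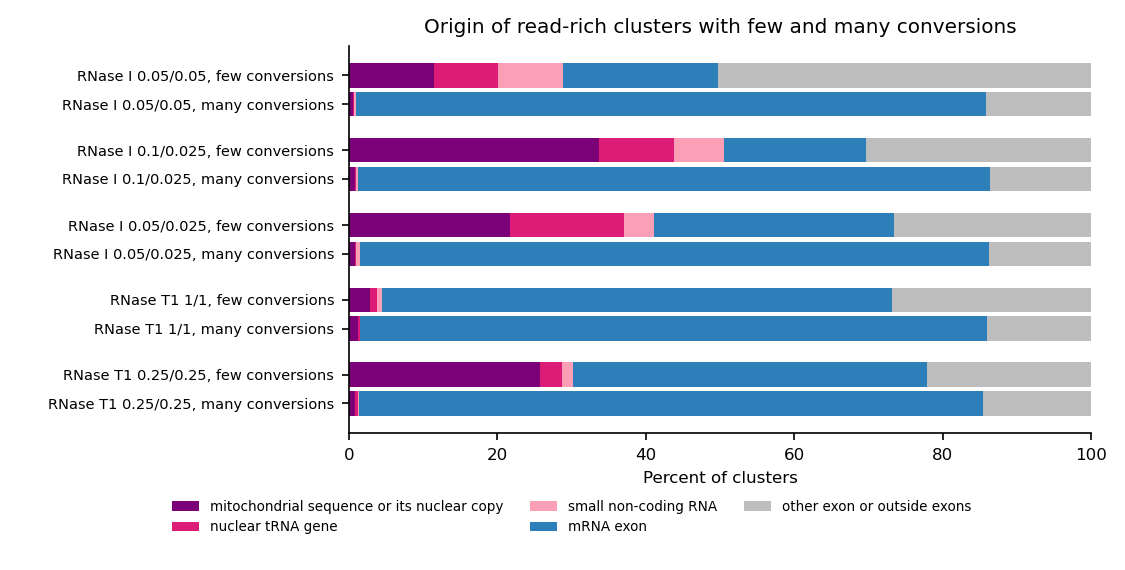
Share of clusters (x axis, percent) in 5 origins (colors) for members (few conversions) and comparison clusters (many conversions) of each IGF2BP3 library. Comparison clusters had 84% to 85.2% in mRNA exons in every library, whereas members had 19.1% to 32.3% with RNase I and 47.8% to 68.7% with RNase T1.

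Since clusters of a library are not replicates, the difference of members minus comparison clusters was taken within each library and tested over the 5 libraries, where the smallest p that an exact two-sided permutation test of signs allows is 0.0625. With 8 measures tested, none reached an adjusted p below 0.125. The share of clusters in 3′UTRs was lower among members in 5 of 5 libraries. It was 18.1%, 15.7% and 29.0% against 73.3%, 76.6% and 76.1% with RNase I and 65.5% and 43.4% against 78.0% and 81.1% with RNase T1. The mean difference was -42.7 percentage points (SD 19.0, n = 5, exact p = 0.0625, adjusted p = 0.125). The share in mitochondrial, small non-coding RNA, lncRNA and pseudogene exons was higher among members in 5 of 5 libraries, by 17.7 points on average (SD 10.4, n = 5, exact p = 0.0625, adjusted p = 0.125). The share in coding sequence differed by -3.95 points (SD 3.66, n = 5, exact p = 0.125, adjusted p = 0.200) and was lower among members in 4 libraries and higher in RNase T1 0.25/0.25. Members were also shorter than comparison clusters, and among clusters of 30 to 60 nt the mean differences were -8.96 points for 3′UTRs and 4.81 points for the non-coding classes. Both turned there in RNase I 0.05/0.025, with 30.95% of members and 26.8% of comparison clusters in 3′UTRs and 25.0% and 27.1% in the non-coding classes, and the non-coding shares of RNase T1 1/1 were 4.18% and 4.25%.

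Mitochondrial RNA gave the members with the most reads. The locus at chrM:3109-4265 on the plus strand runs from the end of MT-RNR2, the large ribosomal RNA (1671 to 3229), through MT-TL1, a leucine tRNA (3230 to 3304), into MT-ND1, a subunit of respiratory complex I (3307 to 4262). It held members in all 5 libraries. With RNase I 0.05/0.05 its member had 570 events on 3179 reads (0.179). That member, at chrM:3262-4265, covers all of MT-ND1, so its ratio also holds reads from inside the gene. With RNase I 0.1/0.025 the locus was called as a pair of members, with 68 events on 1802 reads (0.0377) at the MT-RNR2 side and 89 on 1832 (0.0486) at the MT-ND1 side. A pair was also called with RNase I 0.05/0.025, at 88 events on 2057 reads (0.0428) and 0.0447 on 2257 reads. With RNase T1 the leading members there had 41 events on 572 reads (0.0717) at 1/1 and 23 on 657 (0.0350) at 0.25/0.25. Clusters that began further inside MT-ND1 had mixed ratios. Members there had 2 events on 20 reads (0.100) at chrM:3413-3454 with RNase T1 1/1 and 5 on 33 (0.152) at chrM:3460-3538 with RNase T1 0.25/0.25. Others were above the limit, with 0.552 events per read with RNase I 0.1/0.025 (154 reads), 0.407 with RNase I 0.05/0.025 (172 reads) and 0.596 with RNase T1 1/1 (57 reads).

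MT-TW and its copy on chromosome 1 gave nearly the same values. At chrM:5516-5579 the ratio was 0.144 on 402 reads with RNase I 0.05/0.05, 0.0667 on 195 with 0.1/0.025, 0.0451 on 377 with 0.05/0.025, 0.0588 on 34 with RNase T1 1/1 and 0.167 on 36 with 0.25/0.25. At the copy the same libraries gave 0.181 on 464, 0.0714 on 210, 0.0671 on 432, 0.0588 on 34 and 0.171 on 35. With RNase T1 1/1 both had 34 reads and 2 events, so these members cannot be taken as separate RNAs. The glutamine tRNA MT-TQ on the minus strand had members in 4 libraries, at 12 events on 54 reads (0.222) with RNase I 0.1/0.025, 19 on 86 (0.221) with 0.05/0.025, 8 on 57 (0.140) with RNase T1 1/1 and 2 on 24 (0.0833) with 0.25/0.25. Its read-rich cluster with RNase I 0.05/0.05 had 44 events on 162 reads (0.272) and was just outside the rule. The serine tRNA MT-TS1 had members with RNase I 0.05/0.05 (44 events on 181 reads and 2 on 82 at a neighboring cluster) and 0.1/0.025 (5 on 82). A nuclear copy of MT-RNR1, the small ribosomal RNA, at chr11:10509340-10509454 on the minus strand had 0.167, 0.121, 0.0654, 0.139 and 0.0323 events per read in the members with the most reads of the 5 libraries.

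Further mitochondrial clusters were members in RNase T1 0.25/0.25. There 24 of the 55 plus-strand mitochondrial clusters with at least 20 reads were members (43.6%), against 11.6% to 16.9% in the other libraries. An MT-ND4 cluster had 48 events on 206 reads (0.233), one of MT-CO3, a subunit of cytochrome oxidase, 42 on 173 (0.243), one of MT-ND2 20 on 98 (0.204), and one inside MT-RNR2 35 on 167 (0.210). In the other 4 libraries the clusters with the largest overlap had higher ratios, at 0.518 to 0.601 for MT-ND4, 0.448 to 0.618 for MT-CO3, 0.407 to 0.565 for MT-ND2 and 0.352 to 0.568 for MT-RNR2. All 4 places were below the limit in RNase T1 0.25/0.25, as the rule that chose them requires, and above it at the overlapping clusters of the other libraries. These overlapping clusters can be longer than the members. With RNase I 0.05/0.05, MT-ND4 and MT-CO3 each had 1 read-rich cluster, of 2468 and 2342 reads. Their ratios can therefore also hold reads from outside these places.

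Nuclear tRNA genes gave 21, 9 and 19 members with RNase I 0.05/0.05, 0.1/0.025 and 0.05/0.025 and 11 and 4 with RNase T1 1/1 and 0.25/0.25. Of the read-rich clusters over a tRNA gene, 19.4%, 19.6%, 31.7%, 22% and 44.4% were members, well above the shares of all read-rich clusters given before. The shares were not matched for cluster length, and members were shorter than comparison clusters. Clusters with many conversions also lay over tRNA genes, where the ratio ran from 0.0241 to 1.61. TRU-TCA1-1, which encodes the tRNA that inserts selenocysteine, had 43 events on 232 reads (0.185), 16 on 68 (0.235), 8 on 33 (0.242), 8 on 69 (0.116) and 4 on 26 (0.154) in the 5 libraries in the order used above. TRA-AGC3-1 had 12 events on 96 reads (0.125), 13 on 53 (0.245), 9 on 77 (0.117), 4 on 70 (0.0571) and 12 on 62 (0.194), and its clusters ended at the same base, chr6:28607230, in all libraries. Only 7 of the 39 bases printed for it are T. A second selenocysteine tRNA gene, TRU-TCA2-1, had members in 3 libraries, at 25 events on 117 reads (0.214) with RNase I 0.05/0.05, 8 on 68 (0.118) with RNase T1 1/1 and 4 on 26 (0.154) with RNase T1 0.25/0.25. Lysine tRNA genes had the lowest ratios with RNase T1 1/1, at 2 events on 83 reads (0.0241) for TRK-TTT4-1 and 3 on 84 (0.0357) for TRK-TTT2-1.

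Y RNAs, small RNAs bound by Ro60 and made by RNA polymerase III, gave members in every library. Members were 14 of 52, 3 of 11, 3 of 20, 4 of 11 and 1 of 3 read-rich Y RNA clusters, in the order above. The shares of all read-rich clusters were 1.10%, 1.10%, 1.86%, 7.61% and 7.29%, not matched for cluster length, and nothing is read from the 1 of 3. A Y RNA copy at chr20:23457584-23457624 on the minus strand had 11 events on 207 reads (0.0531), 2 on 81 (0.0247), 5 on 102 (0.0490) and 3 on 27 (0.111) in the first 4 libraries and no read-rich cluster in RNase T1 0.25/0.25. Another copy at chr16:66550521-66550566 on the plus strand was a member with RNase I 0.05/0.025 (38 events on 215 reads, 0.177), RNase T1 1/1 (9 on 174, 0.0517) and RNase T1 0.25/0.25 (5 on 51, 0.0980). With RNase I 0.05/0.05 and 0.1/0.025 its clusters had ratios of 0.298 and 0.274 and were not members. RN7SKP37, a copy of 7SK, the RNA that holds the elongation factor P-TEFb inactive, had 4 events on 163 reads (0.0245) with RNase I 0.05/0.05, 3 on 43 (0.0698) with 0.1/0.025 and 2 on 89 (0.0225) with RNase T1 1/1. At the 7SK gene itself, the cluster at chr6:52995861-52995950 of RNase T1 1/1 had 16 events on 64 reads (0.250), and the clusters of the RNase I libraries with the largest overlap had 0.433 to 0.550. The 7SK gene had further members with RNase I 0.05/0.05 (7 events on 36 reads, 0.194) and 0.05/0.025 (6 on 37, 0.162). Genes and copies of 7SL, the RNA of the signal recognition particle, had 4 members among 6 read-rich clusters with RNase I 0.05/0.05, 1 of 3 with 0.1/0.025, 0 of 2 with 0.05/0.025 and 1 of 1 in each RNase T1 library. These 7SL counts are too small to set beside the shares of all read-rich clusters.

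Where members differed from the best-matching transcript of another gene, the kind of difference was uneven. Clusters in introns, pseudogenes, small RNA genes and copies, antisense or outside genes were aligned to mRNAs, mitochondrial RNAs and the main small RNAs. The best match of at least 90% identity over at least 80% of the cluster was kept, leaving out the gene of the cluster itself. Members at parent genes were therefore matched to other genes, such as RNY4 to ATP5MC3, RNU4-1 to TMC5 and RN7SL1 to TMEM120B, and are counted here. This comparison was added after its values had been seen and was not tested. Differences are read from the transcript to the genomic sequence of the cluster. T-to-C was the kind of 59.1% of the base differences of members with RNase I 0.05/0.05, 55.2% with 0.1/0.025, 31.03% with 0.05/0.025, 48.4% with RNase T1 1/1 and 66.7% with 0.25/0.25. Among comparison clusters the shares were 20.7%, 21.8%, 17.9%, 19.8% and 9.38%. The opposite change, C-to-T, made up 14.5%, 17.2%, 20.7%, 17.2% and 0% of the differences of members against 30.4%, 31.3%, 32.9%, 25.5% and 43.8% in comparison clusters. In all, 515 members had a match, 341 of them without any difference. The other 174 differed from their transcript, and 116 of these held at least 1 T-to-C difference. A copy with members in several libraries is counted in each of them, so these are not separate copies. The share of matched members without a difference was 44.4%, 54.3%, 67.3%, 78.8% and 82.9%, against 78.6%, 80.9%, 77.9%, 89.2% and 88.8% of matched comparison clusters. The counts are small in RNase T1 0.25/0.25, with 6 differences in 6 members, of which 2 remain among clusters of 30 to 60 nt. Among clusters of 30 to 60 nt the T-to-C shares were 56.6%, 50.0%, 39.1%, 35.7% and 50.0% for members and 18.9%, 21.4%, 10.5%, 22.4% and 25.0% for comparison clusters. A read of the matched RNA that was converted at such a base matches the copy without a conversion, and how many reads of these members are of that kind was not tested.

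**Figure D2:**
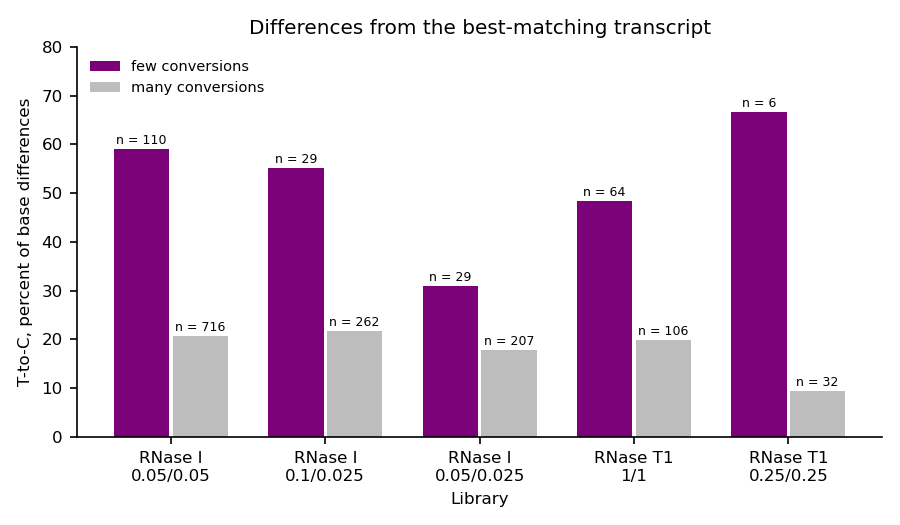
T-to-C differences between the best-matching transcript of another gene and the genomic sequence of the cluster (y axis, percent of all base differences). Bars are members (few conversions) and comparison clusters (many conversions) of each library, with the number of differences above each bar. Members ranged from 31.03% to 66.7% and comparison clusters from 9.38% to 21.8%.

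Of the 35 members that match a transcript over their whole length with 1 base difference and have at least 40 reads, 30 carry a T-to-C difference. The same copy can be among them in several libraries. The 5 pairs below are examples of these, chosen among short members after their values were seen, and are shown because the single base in capitals is the only one at which copy and transcript differ. The 7SK pair is the member at chr10:21933159-21933197 (plus strand, RNase I 0.05/0.05, 4 events on 163 reads). The RNY3 pair is the member at chr20:23457586-23457619 (minus strand, RNase I 0.05/0.025, 5 events on 102 reads). The RNY1 pair is at chr9:127470899-127470930 (plus strand, RNase I 0.05/0.05, 2 events on 71 reads). The 7SL pair is in RN7SL711P at chr5:123070997-123071022 (plus strand, RNase I 0.05/0.05, 2 events on 48 reads). The pair of HSPD1, the mitochondrial chaperonin, is in an intron of SLC2A3 at chr12:8017043-8017071 (minus strand, RNase I 0.05/0.05, 4 events on 61 reads). All are on GRCh38 with transcripts of GENCODE release 44.
RN7SKP37: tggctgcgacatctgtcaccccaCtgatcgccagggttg
7SK transcript: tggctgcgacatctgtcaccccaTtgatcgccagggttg
Y RNA copy, chromosome 20: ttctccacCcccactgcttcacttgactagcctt
RNY3 transcript: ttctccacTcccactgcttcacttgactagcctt
Y RNA copy, chromosome 9: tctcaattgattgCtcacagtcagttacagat
RNY1 transcript: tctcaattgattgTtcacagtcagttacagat
RN7SL711P: actcccgCgctgatcagtagtgggat
RN7SL1 transcript: actcccgTgctgatcagtagtgggat
SLC2A3 intron: aaatcactaCaaccatcagttactggttt
HSPD1 transcript: aaatcactaTaaccatcagttactggttt

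The same matched transcripts recurred, in part because a copy with members in several libraries counts in each of them. The best match need not be the source of the reads. LRRK1, a kinase gene, was the best match of 19 members in 4 libraries, with ratios of 0.0526 to 0.245, and 13 held a T-to-C difference. CTC1, a telomere maintenance gene, was the match of 7 members in 3 libraries, none with such a difference. All 7 lie over nuclear serine tRNA genes, and nuclear tRNAs were not among the transcripts aligned. RNY1 was the match of 7 members, 4 with such a difference. RNY3 was the best match of 11 such members in 4 libraries, with ratios of 0.0247 to 0.185, and all 11 held a T-to-C difference. The copy on chromosome 20 is among them in each of the 4 libraries. HSPD1 was the match of 8 members in 5 libraries, with ratios of 0.0595 to 0.209, again all 8 with a T-to-C difference. HMGA1, an architectural chromatin protein and a known IGF2BP target, was the match of 8 members in 5 libraries, 5 with such a difference. These 8 lie at copies on chromosomes 13 and 4 alone, and the 5 are the chromosome 13 copy in each library. FTH1, the ferritin heavy chain, was the match of 7 members in 3 libraries, 6 with such a difference. The HMGA1 copy on chromosome 13 printed above had 10 events on 162 reads (0.0617), 6 on 67 (0.0896), 3 on 56 (0.0536), 2 on 50 (0.0400) and 2 on 33 (0.0606). All 5 values lie far below the limit. By contrast, the UPP2 intron cluster with the second largest read count among the RNase T1 1/1 members (520 reads, 0.0731) is identical over its aligned length to a transcript of ENSG00000285976, and there the ratio was 0.100 with RNase T1 0.25/0.25 and 0.2997 to 0.378 with RNase I.

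Repeated sequence was common among members. The central 24 nt occurred more than once in the genome in 55.6%, 53.5% and 50.8% of members with RNase I and 26.1% and 45.6% with RNase T1 1/1 and 0.25/0.25, against 20.2%, 23.5%, 26.1%, 19.6% and 29.7% of comparison clusters. The mean difference was 22.5 percentage points (SD 11.5, n = 5, higher in 5 of 5, exact p = 0.0625, adjusted p = 0.125). It turned to -5.31 points among clusters of 30 to 60 nt and to -0.948 points among clusters in mRNA exons.

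In the RNase T1 1/1 library the members were mostly short clusters in 3′UTRs. There were 745 of them in 639 genes, and 451 of these genes (70.6%) also held a comparison cluster in the same library. NFAT5, a transcription factor of osmotic stress, held 6 members, and MOB1A, a Hippo pathway cofactor, held 3. The member of PTGES3, the HSP90 cochaperone p23, at chr12:56663930-56664089 had 77 events on 354 reads (0.218) with RNase T1 1/1. Its overlapping clusters had 0.601 on 296 reads, 0.685 on 355 and 0.621 on 153 with RNase I 0.05/0.05, 0.1/0.025 and 0.05/0.025 and 0.377 on 69 with RNase T1 0.25/0.25. Sequence identical to PTGES3 at chr1:89103760-89103814 had 0.201 on 344 reads with RNase T1 1/1 and 0.471 to 0.663 with RNase I. Further mRNA members of many reads were found in OSTC, an oligosaccharyltransferase subunit (61 events on 269 reads, 0.227), NONO, a paraspeckle protein (54 on 234, 0.231), HMGA1 (46 on 196, 0.235) and MDM2, the ubiquitin ligase of p53 (33 on 186, 0.177).

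With RNase I, members in mRNA exons were few and lower in reads. Their number was 51, 17 and 40, and those with the most reads were in HLA-B (82 reads, 0.183) and RAC1 (80 reads, 0.250) with RNase I 0.05/0.05, EI24 (46 reads, 0.196) with 0.1/0.025 and CAV2, the caveolin-2 gene (69 reads, 0.217), with 0.05/0.025. HLA-B had a member again with RNase I 0.05/0.025 (32 reads, 0.0938), as did the ribosomal protein gene RPS23 (64 reads at 0.219 with 0.05/0.05 and 30 reads at 0.100 with 0.05/0.025). PABPC3, an intronless copy of PABPC1 that is annotated as coding, had 2 members with RNase I 0.05/0.05. Of the read-rich clusters in IGF2BP paralogs and known IGF2BP targets, 0 of 58, 0 of 35 and 0 of 40 were members with RNase I, and 3 of 61 and 1 of 21 with RNase T1 1/1 and 0.25/0.25, beside 1.10%, 1.10%, 1.86%, 7.61% and 7.29% of all read-rich clusters, and nothing is read from numbers this small. Those of RNase T1 1/1 lay in HMGA1 and HMGA2, and that of 0.25/0.25 in CD44, a hyaluronan receptor. Of the clusters in cytosolic ribosomal protein genes, 1 of 317, 0 of 134 and 1 of 149 were members with RNase I (0.315%, 0% and 0.671%) and 6 of 97 and 1 of 21 with RNase T1 (6.19% and 4.76%).

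The following short 3′UTR clusters of RNase T1 1/1 are shown so that members and comparison clusters can be read side by side, with each T in capitals. They are the 3 of each kind of at most 30 nt with the most reads, and they overlap in T content, at 48.3%, 34.5% and 50.0% in the members and 29.2%, 53.8% and 46.4% in the comparison clusters. RAC1, a small GTPase, is at chr7:6402580-6402608 (plus strand, 36 events on 153 reads, 0.235). MAPK13, a p38 kinase, is at chr6:36144175-36144203 (plus strand, 17 on 89, 0.191). PPAT, an enzyme of purine synthesis, is at chr4:56393521-56393550 (minus strand, 10 on 79, 0.127). The comparison clusters are in RPSA, the ribosomal protein SA, at chr3:39408605-39408628 (plus strand, 65 on 114, 0.570), in NFAT5 at chr16:69704251-69704276 (plus strand, 63 on 113, 0.558) and in RAB6C, a Rab GTPase, at chr2:129980914-129980941 (plus strand, 61 on 113, 0.540). A cluster of its paralog RAB6D also had 113 reads and is not printed.
RAC1, few conversions: gaTTaaTTTTTccaTaaaaccaTTTTTTg
MAPK13, few conversions: gaaTaaTaTTTTcaTacacaTaaaaTaTg
PPAT, few conversions: aaTTTTTTTTTaccaaTTTaaTcTcaaaTg
RPSA, many conversions: ggcaTcTaTaTcaTaaaTcTcaag
NFAT5, many conversions: gTTTcaTTcacTTcTTTTacTTaaTg
RAB6C, many conversions: gTcTTcaTTaTTTaTaTTTTacaaaaag

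Over all members, T content had no common direction across libraries. The mean T content was 29.99%, 28.2% and 29.7% in members against 31.2%, 32.1% and 32.02% in comparison clusters with RNase I. With RNase T1 it was 38.7% against 34.5% at 1/1 and 34.4% against 34.5% at 0.25/0.25. T content is tied to the rule, since a sequence with fewer T can hold fewer conversions. The mean difference was -0.62 points (SD 3.07, n = 5, lower in 4 libraries, exact p = 0.688). It became 0.18 without RNase I 0.1/0.025 and 1.34 among clusters in mRNA exons. Within genes that held both kinds of cluster in a library, members had 31.2%, 28.5%, 30.6%, 39.1% and 37.5% T and comparison clusters 30.7%, 28.8%, 31.4%, 34.7% and 33.6%, for a mean difference of 1.54 points (SD 2.46, n = 5, exact p = 0.375, adjusted p = 0.429). It was 4.29 points with at least 50 reads (higher in 5 of 5, exact p = 0.0625), 0.816 without RNase T1 1/1 and 0.946 without RNase T1 0.25/0.25. In 3′UTRs alone, members of RNase T1 1/1 had 40.4% T and 8.57% G, and comparison clusters 35.0% and 12.97%. G content over all members differed by -1.25 points (SD 2.96, n = 5, exact p = 0.312, adjusted p = 0.417). It became -2.42 without RNase I 0.1/0.025, -0.552 without RNase T1 1/1 and -0.688 without RNase T1 0.25/0.25. It was lower in 5 of 5 libraries in mRNA exons (-2.93, exact p = 0.0625) and with clusters weighted by their reads (-2.995, exact p = 0.0625).

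Members were more frequent at both ends of the T content range than in its middle. With RNase I 0.05/0.05, 2.36% of the read-rich clusters under 20% T were members, 0.719% of those with 30 to 40% T and 4.41% of those with at least 50% T (95% Wilson intervals 1.66% to 3.35%, 0.575% to 0.899% and 2.04% to 9.29%). With RNase T1 1/1 the shares were 9.28%, 5.88% and 17.7% (7.01% to 12.2%, 5.33% to 6.50% and 15.6% to 20.0%). The lowest share was at 30 to 40% T in each of the 5 libraries. In RNase I 0.1/0.025 and 0.05/0.025 the bins of at least 50% T held only 43 and 48 clusters, with intervals of 0.412% to 12.1% and 2.15% to 16.8%, of which the first overlaps that of the 30 to 40% bin (0.521% to 1.06%). Wilson intervals cover counting error only. The bins were not matched for cluster length, and members were shorter than comparison clusters. T content and cluster length therefore cannot be told apart in these shares.

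**Figure D3:**
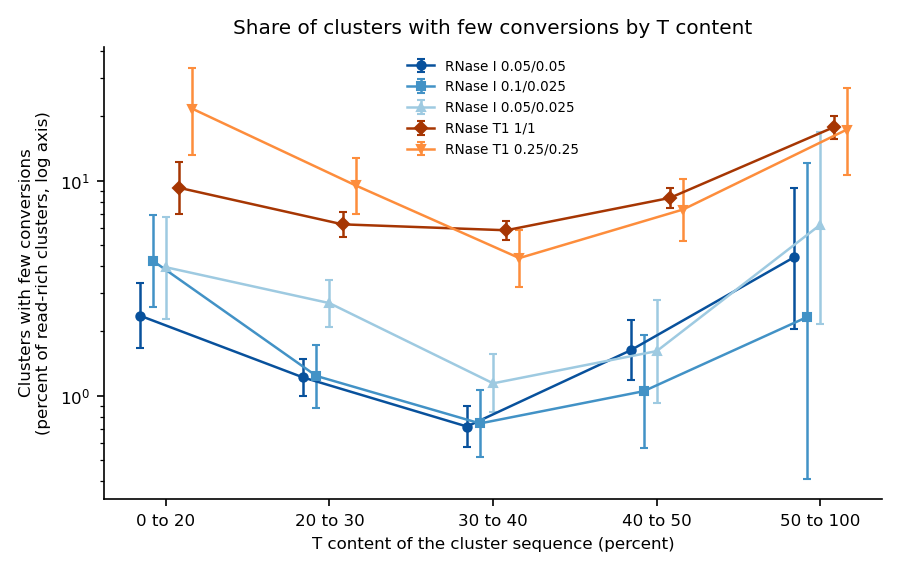
Members as a percentage of read-rich clusters (log y axis) in 5 bins of T content (x axis, percent of the cluster sequence) for each library, with 95% Wilson intervals. Every library had its lowest share at 30 to 40% T, from 0.719% to 5.88%, and higher shares under 20% T. The bins were not matched for cluster length.

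Clusters with at least 50% T made up 18.1% of members and 4.27% of comparison clusters with RNase T1 1/1 and 10.3% and 2.30% with RNase T1 0.25/0.25. The tetramer TTTT occurred 45.5 times per kb in members and 15.6 times in comparison clusters of RNase T1 1/1, and 25.5 and 16.5 times with 0.25/0.25. With RNase I the densities were 12.6, 7.57 and 8.78 in members and 13.5, 14.6 and 14.5 in comparison clusters. GGAC occurred 0.433 times per kb in members of RNase T1 1/1 and 1.82 times in comparison clusters, 0.641 and 1.92 times with 0.25/0.25, and 2.61 and 2.57, 1.73 and 2.37, and 2.93 and 2.40 times in the RNase I libraries. CATT, which holds the CAT (CAU in RNA) of the known IGF2BP motif, was denser in members than in comparison clusters with RNase T1, at 14.6 against 11.3 and 11.2 against 10.7 per kb, and less dense with RNase I, at 5.86 against 7.61, 4.54 against 8.53 and 7.81 against 8.22. CAGT (CAGU in RNA), the motif the authors ranked first with RNase I, was less dense in members in every library. It occurred 5.41, 4.76 and 5.21 times per kb with RNase I against 6.33, 6.73 and 6.46 in comparison clusters. With RNase T1 1/1 and 0.25/0.25 it occurred 1.94 and 2.88 times against 4.33 and 5.99. With RNase T1 1/1, 94.0% of members and 94.4% of comparison clusters ended in G, where the enzyme cuts.

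Members were shorter than comparison clusters in 5 of 5 libraries. The median length was 40, 42 and 44 nt against 125, 123 and 125 nt with RNase I, 37 against 44 nt with RNase T1 1/1 and 41 against 70 nt with RNase T1 0.25/0.25. The mean difference was -56.6 nt (SD 36.1, n = 5, exact p = 0.0625, adjusted p = 0.125). The ratio that chose the members can be split into the number of T positions read per read and the share of these read as C. With RNase I the medians were 6.05, 6.0 and 6.42 T per read in members against 8.05, 8.29 and 8.55, and 2.68%, 2.80% and 2.92% converted against 8.18%, 8.10% and 7.54%. With RNase T1 1/1 and 0.25/0.25 they were 9.34 and 8.44 T per read against 8.77 and 8.90, and 2.02% and 2.30% converted against 7.22% and 7.12%. The lower ratio of the RNase T1 1/1 members thus came with more T per read than in comparison clusters, and that of the RNase I members with fewer.

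The other libraries give a measure that the rule did not use. For each member, the read-rich cluster of another library with the largest overlap on the same strand was taken. Members of the RNase I libraries had median ratios of 0.171 to 0.395 in other libraries, and comparison clusters had 0.500 to 0.667 there. Members of RNase T1 1/1 had 0.577, 0.607 and 0.545 in the 3 RNase I libraries, where comparison clusters had 0.640, 0.657 and 0.608, and 0.250 in RNase T1 0.25/0.25 against 0.600. Members of RNase T1 0.25/0.25 had 0.584, 0.540 and 0.482 with RNase I and 0.329 with RNase T1 1/1. Over the 20 ordered pairs of libraries the difference ran from -0.403 to -0.0496, with a mean of -0.237, and since pairs share libraries it was not tested. These values rest on members with a read-rich partner, from 15 of 243 members of RNase I 0.05/0.05 in RNase T1 0.25/0.25, the pair with the median of 0.171, to 686 of 1138 members of RNase T1 1/1 in RNase I 0.05/0.05. A longer partner also holds reads from outside the member. With an overlap of at least 50% of both clusters, members of RNase T1 1/1 had 0.450, 0.442 and 0.400 with RNase I. Comparison clusters had 0.619, 0.645 and 0.595 there. Members of RNase T1 0.25/0.25 then had 0.419, 0.342 and 0.357 with RNase I, against 0.651, 0.659 and 0.584. For RNase T1 1/1 this rests on 147, 80 and 75 members. The mean difference over the pairs was then -0.307.

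**Figure D4:**
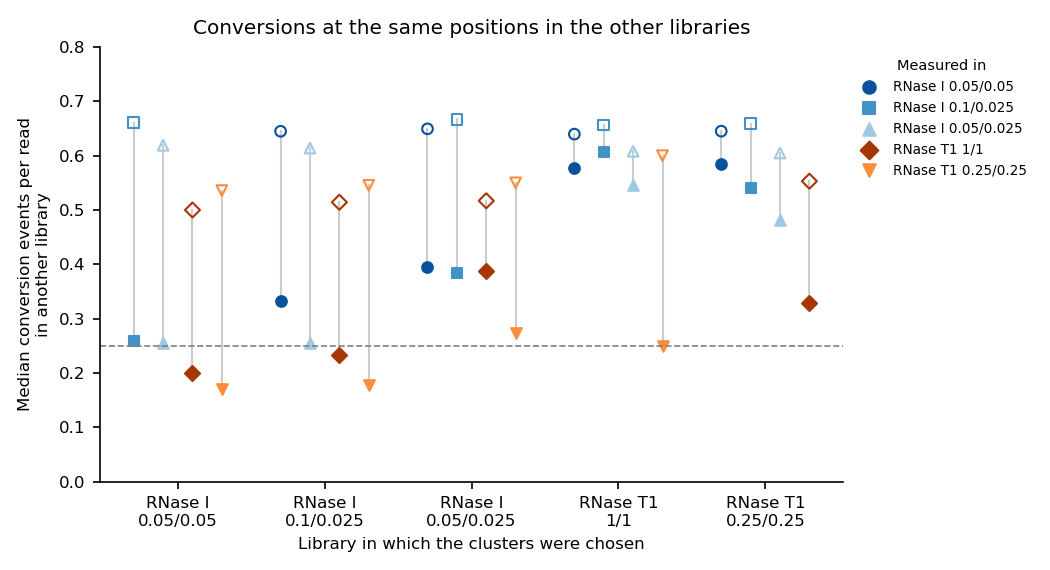
Median conversion events per read (y axis) at members (filled) and comparison clusters (open) chosen in 1 library (x axis) and measured in each of the other libraries (color and symbol), with a dashed line at 0.25. Members of RNase T1 1/1 had 0.545 to 0.607 in the RNase I libraries and 0.250 in RNase T1 0.25/0.25. Partners are the clusters with the largest overlap, which can be longer than the member.

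Most loci had members in only 1 library. Overlapping members formed 1561 loci, of which 1451 had a member in 1 library, 78 in 2, 20 in 3, 5 in 4 and 7 in 5. Both enzymes shared 58 loci, 325 were of RNase I libraries alone and 1178 of RNase T1 libraries alone. Loci of comparison clusters were not counted, so nothing particular to members is read from these numbers. They also depend on depth, with 14951 read-rich clusters in RNase T1 1/1 and 1866 in RNase T1 0.25/0.25. Of the RNase T1 1/1 clusters, 69 of 1138 members and 905 of 6844 comparison clusters had a read-rich partner in RNase T1 0.25/0.25. The 7 loci of all libraries are the locus from MT-RNR2 into MT-ND1, MT-TW and its nuclear copy, the MT-RNR1 copy, TRU-TCA1-1, TRA-AGC3-1 and the HMGA1 copy. None of the member loci in 3 or more libraries was in a 3′UTR, and the same was not counted for comparison clusters. The 5 loci of 4 libraries are MT-TQ and its nuclear copy, the Y RNA copy on chromosome 20, PABPC1P2, a pseudogene of the cytoplasmic poly(A)-binding protein, and a copy of ENSG00000285976 at chr1:176616809-176616842 on the minus strand. At the last of these, T content was 48.5% to 53.3% and the ratio was 0.241, 0.250, 0.170 and 0.133 in the 4 libraries where it was a member and 0.311 with RNase I 0.05/0.05.

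**Figure D5:**
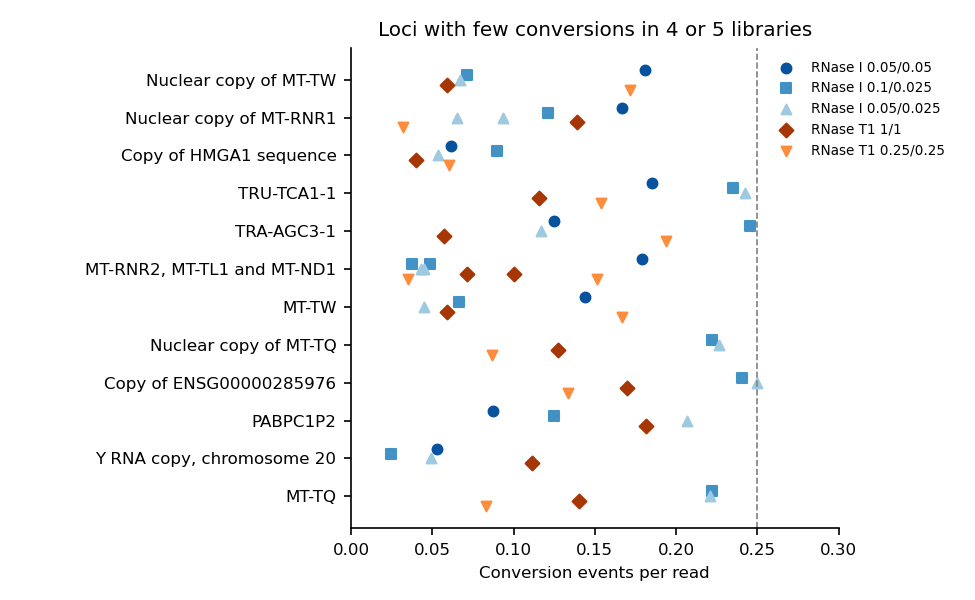
Conversion events per read (x axis) of each member in the 12 loci with members in 4 or 5 libraries (y axis), by library (color and symbol), with a dashed line at the limit of 0.25. A locus can hold more than 1 member of a library, and read-rich clusters above the limit are not drawn.

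The IgG control had 25 clusters, 5 with at least 20 reads, and 2 of these met the rule. Its cluster at TRA-AGC3-1 had 5 events on 21 reads (0.238), and the one at chrM:1611-1654 had 5 on 23 (0.217). Members that overlapped an IgG cluster numbered 2, 4, 3, 3 and 3, or 0.823%, 4.49%, 2.42%, 0.264% and 2.21% of members, against 0.0840%, 0.170%, 0.249%, 0.146% and 0.500% of comparison clusters. Of the 25 IgG clusters, 5 overlapped a member of at least 1 library, and 7 lay over a nuclear tRNA gene. At the MT-RNR1 copy on chromosome 11 the IgG cluster had 5 events on 13 reads (0.385). MT-TW, TRU-TCA1-1, the Y RNA copies on chromosomes 16 and 20 and the HMGA1 copy had no IgG cluster, in a library of 324 cluster reads. What part of the members is RNA carried along without a link to IGF2BP3 was not tested.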

How the data were processed

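The authors extracted molecular identifiers with UMI-tools 1.1.1, kept reads of 18 to 45 nt (Trimmomatic 0.30), mapped them to GRCh38.p13 using Bowtie 0.12.7 with up to 3 mismatches, and removed duplicates. PARalyzer was run on each of the 6 libraries. The deposited tables give, for each cluster, counts of reads and of conversion events, not normalized. The deposited mode score, a fraction, was not used.

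Ratios, T content and overlaps were computed with Python 3.11.15, numpy 2.4.6 and pandas 2.3.3, exact tests with SciPy 1.17.1, matches with BLAST+ 2.17.0 and plots with matplotlib 3.10.9. Classes came from GENCODE release 44, in the order mitochondrial chromosome, 3′UTR, coding sequence, 5′UTR, small non-coding RNA, lncRNA, pseudogene, other exon, intron, antisense, outside genes, with an overlap of at least 1 nt. Transfer RNA genes came from a RefSeq table of GRCh38.p14, which gives no strand. The 5 libraries held 182448 to 2362467 cluster reads and IgG 324. Library differences were tested with an exact two-sided permutation of signs and Benjamini-Hochberg adjustment over 8 measures. In a check of the code on simulated clusters, 97.0% to 99.5% of 200 clusters given few conversions were recovered in each library. The simulated conversion rates lay further apart than the medians of members and comparison clusters. The check therefore says nothing about clusters near the limit.

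Members and lists were chosen with earlier results of these data known. Named loci are the 5 members with the most reads per library, genes with members in all libraries, the genes with the most members, small or mitochondrial RNA genes with members in at least 2 libraries, and members nearest the limit. Other named genes illustrate counts and were chosen after their values were seen. The comparison of bases with transcripts and the setting of mRNA exons alone were also chosen after seeing the data. Sequences from chromosome 8 were not used.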

Additional observations from a re-analysis of the deposited data

How the results depend on the processing

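Each result was recomputed under other settings, of which 1, mRNA exons alone, was chosen after seeing the data. Of 100 recomputed values, 90 kept their direction or size, 6 turned direction and 4 counts moved. Values that kept their direction could shrink: chosen by the share of T read as C, the 3′UTR difference was -7.29 points and the non-coding difference 2.42 (lowest library -1.96, exact p = 0.25). The difference in T content (main value -0.62 points) became 10.5 points when members were chosen by the share of T read as C, 0.0509 among clusters whose central stretch occurs once and 1.34 in mRNA exons. Leaving out 1 library gave -1.85 to 0.180. The difference in repeated sequence became -5.31 points among clusters of 30 to 60 nt and -0.948 in mRNA exons. The number of members was 394 with at least 50 reads, 506 with at most 0.15 events per read and 1029 among clusters whose central stretch occurs once, and leaving out 1 library gave 592 to 1641. Choosing members by the share of T read as C builds more T into them, and the cause of the other changes was not tested. No paired analysis was possible because each condition has 1 library, so replicate numbers pair no samples between conditions, and the tests compare sets of clusters within each library. A cluster of 20 reads at the limit holds 5 events, so counting error alone can move a cluster over it.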
